A study of Cavia porcellus with 35 samples.

Results

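The machinery that joins both sides of a synapse was represented by 9 genes, which were followed across all 4 count tables of the series: the neurexins NRXN2 and NRXN3, the neuroligins NLGN1, NLGN2 and NLGN3, the leucine-rich repeat transmembrane proteins LRRTM1, LRRTM2 and LRRTM3, and gephyrin (GPHN). They were picked by symbol from a list, matched without regard to case, and all 9 were found among the 12097 genes of the 4 tables. The F2 female, F3 female and F1 male tables held all 9, and the F1 female table as used here held 8, without a row for NLGN2. Every member present passed the filter on low counts, with the lowest library at 388 reads for NLGN1 and the highest at 8870 reads for NRXN2.

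The animals were juvenile guinea pigs (Cavia porcellus) killed on postnatal day 40, and messenger RNA was sequenced from punches of medial prefrontal cortex with 1 library per animal. The pregnant founder dams had been given the synthetic glucocorticoid betamethasone (labelled Beta, called sGC here) or saline late in gestation, so that the F1 offspring were exposed in the womb. F2 and F3 animals were bred from F1 and F2 fathers and females from outside the experiment. The 35 libraries comprised 4 control and 4 sGC females in each of the F1, F2 and F3 generations, and 5 control and 6 sGC F1 males. Females of a group came from different litters, which the methods did not state for the males.

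Neurexins are presynaptic membrane proteins that reach across the cleft to several kinds of postsynaptic partner, among them neuroligins and LRRTMs. Neuroligin 1 and the LRRTMs are best known from excitatory synapses, neuroligin 2 from inhibitory ones, and neuroligin 3 from both. Gephyrin is the scaffold that holds glycine and GABA-A receptors beneath inhibitory terminals. Neurexin genes make long and short proteins from separate promoters with extensive splicing. The counts sum all of these, and the kit used marks no strand, so isoforms and overlapping antisense RNA could not be told apart.

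Totals ran from 12819964 to 31763585 reads per library, with the male libraries the deepest. The extraction text of the labels names the paraventricular nucleus, while the source is given as prefrontal cortex. Of these sites, the sums of the markers found matched the cortex. The 8 or 9 genes found of a list of 10 excitatory cortical neuron markers summed to between 2664 and 8198 CPM (read counts scaled to the library total, with TMM factors). Sums were 6.58 to 19.3 CPM for the 3 or 4 genes found of a list of 7 paraventricular markers. Listed genes without a row could not add to either sum. Striatal medium spiny neuron markers summed to between 115 and 2710 CPM, with 2710 and 2569 CPM in F1 female controls 1 and 4. Some cell type marker levels moved with sGC in every table, and those values stand beside the results they accompany. In bulk RNA, fewer cells of a type and less RNA per cell cannot be told apart.

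In F1 males, NRXN3, LRRTM1 and LRRTM2 were lower in sGC animals, and these were the only calls among the members in any single table. A call is a false discovery rate (FDR) under 0.05 by the quasi-likelihood test of edgeR, adjusted over all genes of a table. Among males 3 of 9 members were called, all lower, against 9.22% of all genes called and 3.48% called lower. No member was called in F1 females (0 of 8, background 16.5%), F2 females (0 of 9, background 0.278%) or F3 females (0 of 9, background 1.34%). At an unadjusted p under 0.05 the counts were 1, 3 and 2 members in these females and 4 in F1 males, against 34.2%, 16.1%, 17.3% and 25.2% of all genes. DESeq2 and the likelihood ratio test called none in the 3 female tables either.

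**Figure D1:**
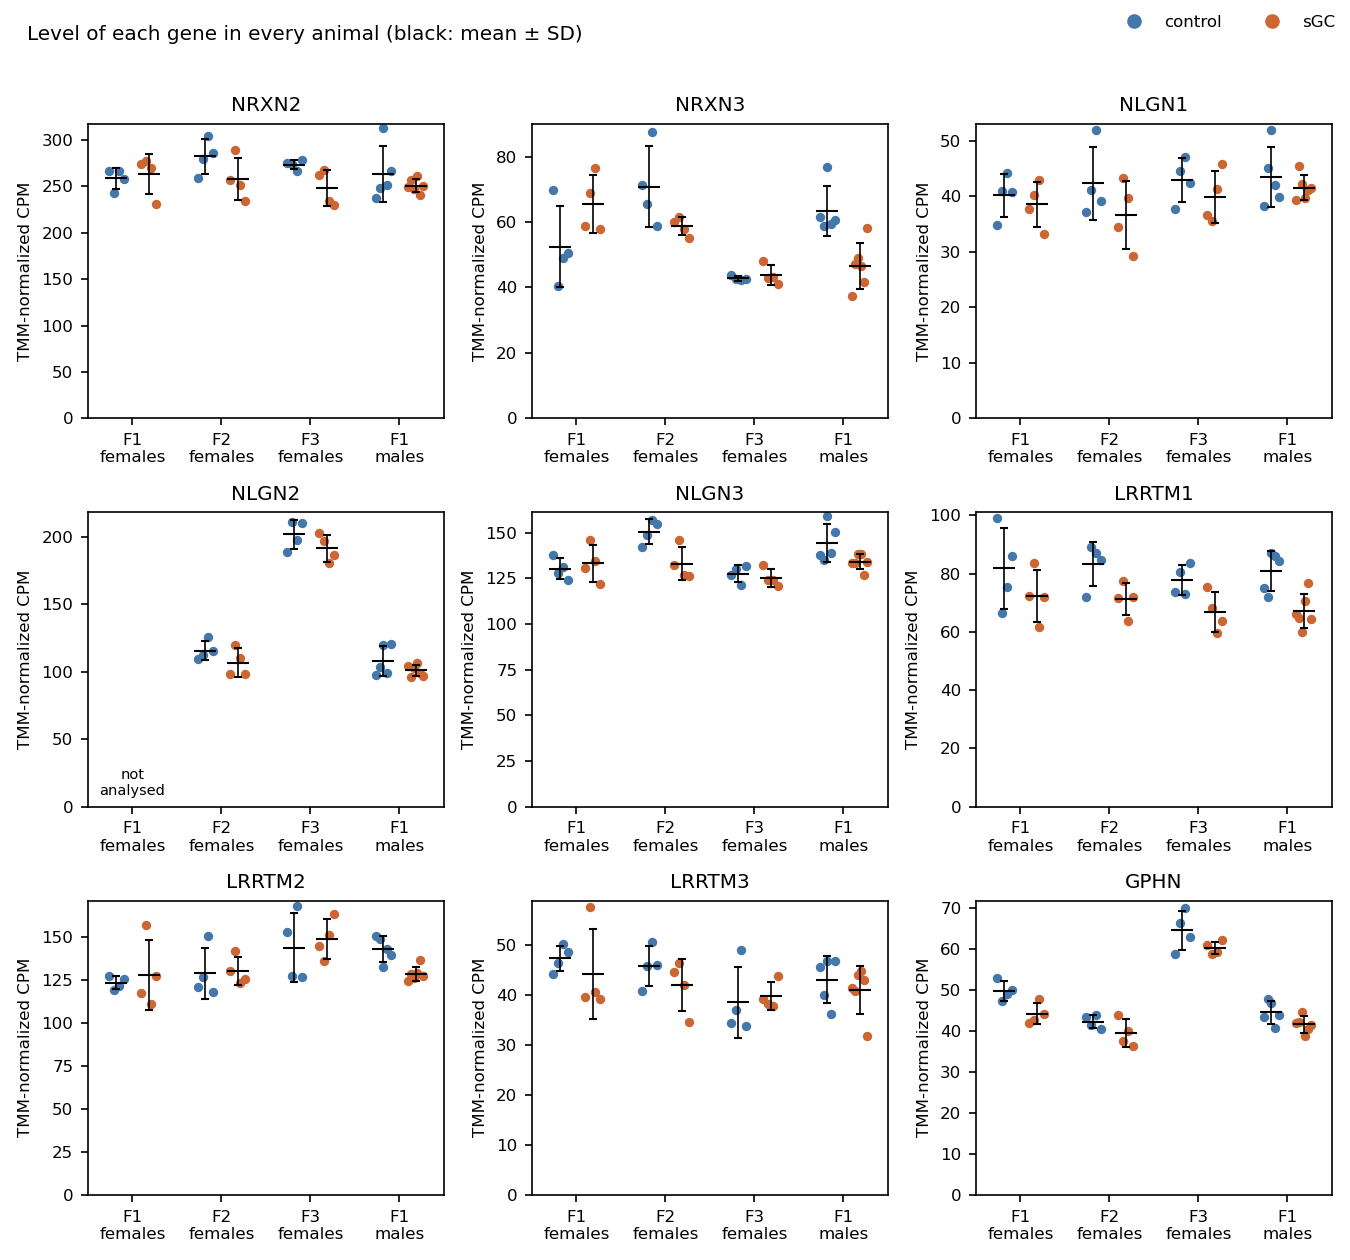
Level of each of the 9 genes in every animal, in TMM-normalized CPM on an axis from 0, for control (blue) and sGC (orange) animals of each table. Black bars give the mean and SD, and only NRXN3 in F1 males has control and sGC points that do not overlap.

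NRXN3 encodes neurexin 3, and in males it was the member that moved most. The 5 male controls were at 61.6, 58.7, 76.8, 59.3 and 60.5 CPM, and the 6 sGC males had a lowest value of 37.3, a median of 46.8 and a highest value of 58.1 CPM. Every sGC male lay below every control male, so the groups did not overlap, which held for 6.26% of all genes in this table and for 2.04% in the lower direction. The means were 63.4 ± 7.59 CPM (SD, n = 5) in controls and 46.6 ± 7.05 CPM (SD, n = 6) in sGC males. This is a log2 fold change of -0.44 (SE 0.10, 95% interval -0.66 to -0.22, FDR 0.0171, edgeR quasi-likelihood test). The call held whichever of the 11 males was left out, with log2 fold changes from -0.52 to -0.36.

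In F1 females NRXN3 lay the other way but was not called. Controls 1 to 4 were at 69.9, 40.3, 48.9 and 50.7 CPM and sGC females at 58.8, 68.8, 76.4 and 57.9 CPM. All sGC females exceeded 3 of the controls, and control 1 sat among the sGC values. The log2 fold change was 0.32 (95% interval -0.05 to 0.69, FDR 0.198, edgeR quasi-likelihood test). Without control 1 it was 0.51 with an FDR of 0.0277.

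F2 females had NRXN3 at 71.4, 65.6, 87.5 and 58.8 CPM in controls and 59.9, 61.6, 57.9 and 55.2 CPM after sGC. The ranges overlapped through the lowest control, and the log2 fold change of -0.27 (SE 0.11, 95% interval -0.51 to -0.03) did not pass (FDR 0.252, edgeR quasi-likelihood test). In F3 females the 4 controls were tightly placed between 42.2 and 43.8 CPM, and the sGC females lay on both sides of them, between 41.0 and 48.1 CPM. The log2 fold change there was 0.03 (95% interval -0.10 to 0.17).

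Marker levels also moved in F2 females, beside the values of NRXN3 and those of NLGN3 and LRRTM1 given further on. Oligodendrocyte precursor markers summed to 656 to 787 CPM in F2 controls and 797 to 1059 CPM in sGC females, without overlap, though 0 of 7 were called. Mature oligodendrocyte sums overlapped, with medians of 3602 and 8279 CPM (0 of 9 called), and 1 of 5 striatal markers was called higher, with sums of 156 to 208 CPM and 138 to 254 CPM. Their part in the F2 values was not tested.

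The response of NRXN3 differed between F1 females and F1 males. The difference, male response minus female response, was -0.77 on the log2 scale (SE 0.20, 95% interval -1.18 to -0.35, FDR 0.00707, edgeR quasi-likelihood test of the interaction). NRXN3 was the single member called in this contrast, 1 of 8 against 31.7% of all genes, and it was called in each of 19 fits that left out 1 animal, with values from -0.94 to -0.66. The sexes were counted in separate tables of different depth, so sex and table cannot be told apart. Between F1 and F2 females the NRXN3 responses differed by -0.59 (95% interval -1.04 to -0.15, FDR 0.0710, edgeR quasi-likelihood test), with 0 of 8 members called against a background of 13.8%. The likelihood ratio test and DESeq2 called NRXN3 in that contrast. No member was called between F1 and F3 females (background 0.0981%) or between F2 and F3 females (background 0.018%), by the quasi-likelihood test, the likelihood ratio test or DESeq2. At an unadjusted p under 0.05, 2 and 2 members differed in the contrasts of F1 females with F1 males and with F2 females (42.2% and 30.7% of all genes), and 0 and 1 in the other two (15.8% and 11.5%).

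Some cell type marker levels also differed between control and sGC animals in both F1 tables. In F1 males all 9 measured genes of the mature oligodendrocyte list were called higher after sGC, with summed levels of 3608 to 6887 CPM in controls and 7732 to 13250 CPM in sGC males. Oligodendrocyte precursor markers were higher too (5 of 7 called, 472 to 599.6 CPM against 644 to 822 CPM). Summed pan-neuronal markers overlapped in the males, the medians being 11073 CPM for controls and 10455 CPM for sGC males, and 1 of 9 was called lower. Of the inhibitory neuron markers 2 of 10 were called lower, with overlapping sums of 675 to 836 CPM for controls and 624.8 to 768 CPM for sGC males. Excitatory cortical markers summed to 5374 to 6141 CPM in male controls and 5020 to 5576 CPM in sGC males, with 0 of 9 called. The part of these shifts in the male results was not tested.

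In F1 females the pan-neuronal sum rose from 7117 to 8487 CPM in controls to 9898 to 12408 CPM in sGC animals, with 6 of 9 genes called higher. Markers of striatal medium spiny neurons went down (5 of 8 called), from 594 to 2710 CPM in controls to 249 to 628 CPM after sGC. Control 1, which carried the highest NRXN3 level among female controls, also had the highest striatal sum, 2710 CPM, the highest excitatory cortical sum of the controls, 5011 CPM against 2892 to 3150 CPM, and the lowest oligodendrocyte sum, 4765 CPM, against 8126 to 16220 CPM in the other 3 controls. Control 4 had a similar striatal sum, 2569 CPM, with NRXN3 at 50.7 CPM. Microglial markers were lower in sGC females (4 of 5 called, 235 to 284 CPM against 175 to 197 CPM). How far these shifts carry into the F1 female values was not tested.

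**Figure D2:**
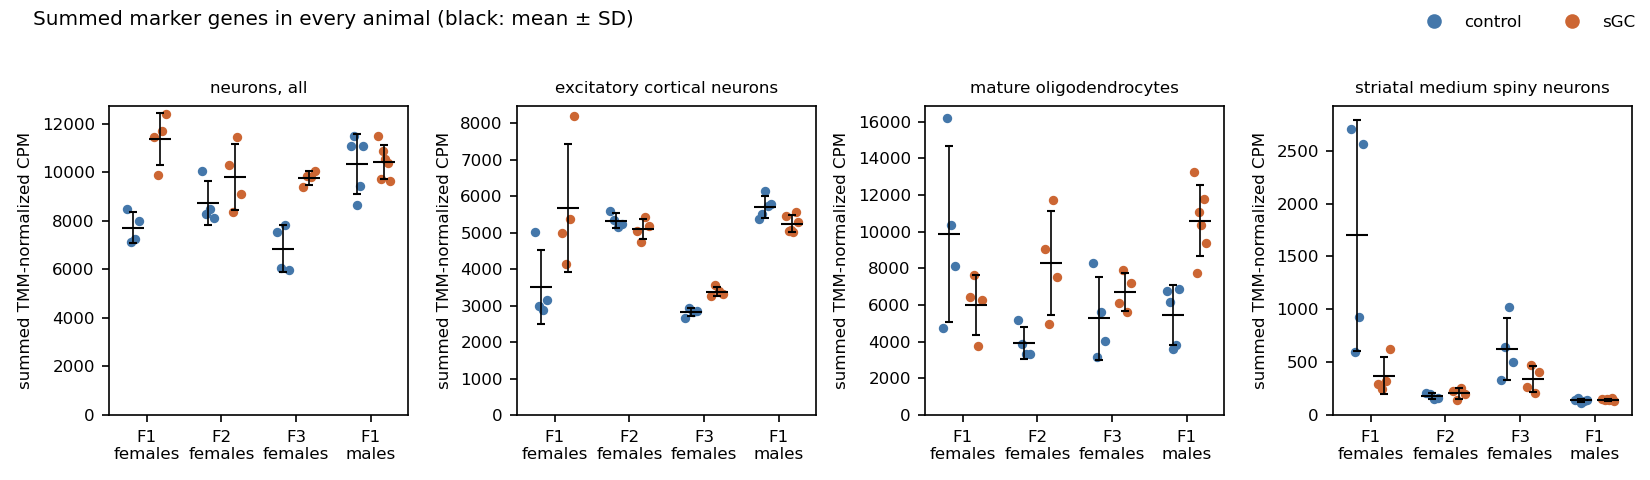
Summed TMM-normalized CPM of 4 cell type marker lists in every animal, for control (blue) and sGC (orange) animals of each table, with the mean and SD in black. Oligodendrocyte sums do not overlap in F1 males, pan-neuronal sums do not overlap in F1 and F3 females, and striatal sums are highest in F1 female controls, up to 2710 CPM.

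NRXN2, the other neurexin, was not called in any table. F3 female controls were at 275, 274, 267 and 278 CPM and sGC females at 262, 268, 234 and 230.0 CPM, so that 3 of 4 sGC animals lay below all controls. The log2 fold change was -0.14 (SE 0.06, FDR 0.284, edgeR quasi-likelihood test). Log2 fold changes elsewhere were 0.03 in F1 females, -0.13 in F2 females and -0.07 in F1 males. In F1 females 3 sGC animals lay between 270.4 and 277 CPM, above the highest control at 267 CPM, and the fourth was lowest of all 8 at 231 CPM.

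None of the 3 neuroligins, the postsynaptic partners of the neurexins, was called in any table. In F2 females NLGN3 controls were at 142, 149, 157 and 155 CPM and sGC females at 132, 146, 127 and 126 CPM. Of these, 1 sGC female lay within the control range and the other 3 below it, and the log2 fold change was -0.18 (SE 0.06, FDR 0.207, edgeR quasi-likelihood test). In F1 males NLGN3 was 135 to 159 CPM in controls and 127 to 139 CPM in sGC males, with a log2 fold change of -0.11 (95% interval -0.21 to -0.01, FDR 0.173). Log2 fold changes of 0.03 in F1 females and -0.02 in F3 females were smaller than their SEs of 0.07 and 0.05.

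NLGN1, which encodes the neuroligin of excitatory synapses, had negative log2 fold changes in all 4 tables, of -0.06 in F1 females, -0.21 in F2 females, -0.11 in F3 females and -0.06 in F1 males. Control and sGC values overlapped each time, and FDRs lay between 0.481 and 0.694. The widest interval was that of F2 females, -0.50 to 0.09, where controls ran from 37.2 to 51.9 CPM and sGC females from 29.3 to 43.3 CPM.

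NLGN2, the neuroligin of inhibitory synapses, was measured in 3 tables. Log2 fold changes were -0.12 in F2 females, -0.08 in F3 females and -0.10 in F1 males, with FDRs from 0.356 to 0.547. Each was accompanied by an interval that included 0, the widest from -0.29 to 0.05.

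Among the LRRTMs, which bind neurexins from the postsynaptic side of excitatory synapses, LRRTM1 was lower after sGC in F1 males. Male controls were at 75.0, 72.0, 87.2, 86.1 and 84.3 CPM, and sGC males had a lowest value of 59.8, a median of 65.3 and a highest value of 76.6 CPM. Of the 6 sGC males, 5 lay below all controls, and 1 lay within their range. Means were 80.9 ± 6.94 CPM (SD, n = 5) and 67.0 ± 5.86 CPM (SD, n = 6), so that the log2 fold change came to -0.27 (SE 0.07, 95% interval -0.42 to -0.12, FDR 0.0258, edgeR quasi-likelihood test). Leaving out 1 male at a time kept the call in 6 of 11 fits, with values between -0.31 and -0.24 and an FDR of 0.0694 at most. The fits that lost it were those without control 3 or 4 or sGC animal 1, 2 or 3, and the single fit of all 8 groups put the FDR at 0.0555.

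The 3 female tables gave LRRTM1 values of similar size that were not called. F2 controls were at 72.1, 89.2, 87.0 and 84.8 CPM and F2 sGC females at 71.6, 77.5, 63.9 and 72.1 CPM. F3 controls were at 73.6, 80.7, 73.1 and 83.6 CPM and F3 sGC females at 75.5, 68.0, 59.5 and 63.7 CPM. In both generations 3 of 4 sGC females lay below every control of their table. In F2 females the highest of these, at 72.11 CPM, was almost level with the lowest control, at 72.13 CPM. Log2 fold changes were -0.22 (SE 0.08) in each, with FDRs of 0.218 in F2 and 0.199 in F3 females (edgeR quasi-likelihood test). F1 females spread more widely, 66.5 to 99.1 CPM in controls and 61.7 to 83.5 CPM after sGC, with a log2 fold change of -0.18 (SE 0.13, FDR 0.363).

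LRRTM2 was lower after sGC in F1 males by a smaller amount. Male controls were at 151, 149, 132, 143 and 139 CPM, and sGC males had a lowest value of 124, a median of 128 and a highest value of 136 CPM. The lowest control fell inside the sGC range and the other 4 lay above it. The log2 fold change was -0.15 (SE 0.04, 95% interval -0.24 to -0.07, FDR 0.0337, edgeR quasi-likelihood test). This call held in 4 of 11 fits that left out 1 male, and was lost without control 1, 2 or 4 or any of sGC animals 1 to 4, with an FDR of 0.0785 at most. It was also lost when all 8 groups were fitted together (FDR 0.238).

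LRRTM2 gave log2 fold changes of 0.05, 0.01 and 0.05 in F1, F2 and F3 females, none of them called. The male response minus the F1 female response was -0.21 (95% interval -0.43 to -0.0030, FDR 0.114, edgeR quasi-likelihood test of the interaction). LRRTM3 was not called in any table, with log2 fold changes of -0.10, -0.13, 0.05 and -0.07 in F1, F2 and F3 females and F1 males. In F1 females its controls were at 44.2, 46.6, 50.2 and 48.6 CPM and its sGC animals at 39.7, 57.7, 40.6 and 39.2 CPM. Of the 4 sGC females, 3 lay below all controls and 1 above them, and without that one the log2 fold change was -0.25 with an FDR of 0.0366.

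GPHN, the inhibitory scaffold, was not called in any single table, and its log2 fold changes were -0.17, -0.10, -0.10 and -0.10 in F1, F2 and F3 females and F1 males. F1 female controls were at 53.1, 47.3, 49.1 and 50.01 CPM and sGC females at 42.0, 42.8, 47.8 and 44.2 CPM. Of the 4 sGC females, 3 lay below all controls, and the log2 fold change of -0.17 (SE 0.06, 95% interval -0.32 to -0.03) had an FDR of 0.0887 (edgeR quasi-likelihood test). Fitting all 8 groups together, which shares 1 estimate of the spread, gave that F1 female value an FDR of 0.0380. That fit called 3327 of all 10948 genes in F1 females. Inhibitory neuron markers were lower in the same animals (3 of 10 called: GAD2, SLC32A1 and DLX5), with overlapping sums of 831 to 1190.2 CPM for controls and 699.6 to 929.7 CPM after sGC. The highest inhibitory sums, 1159 and 1190.2 CPM, were in controls 1 and 4, which also had the highest striatal sums, 2710 and 2569 CPM. Astrocyte markers were lower as well (3 of 7 called, 6600.5 to 7520.1 CPM against 6226 to 6875 CPM). Their part in the GPHN values was not tested.

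**Figure D3:**
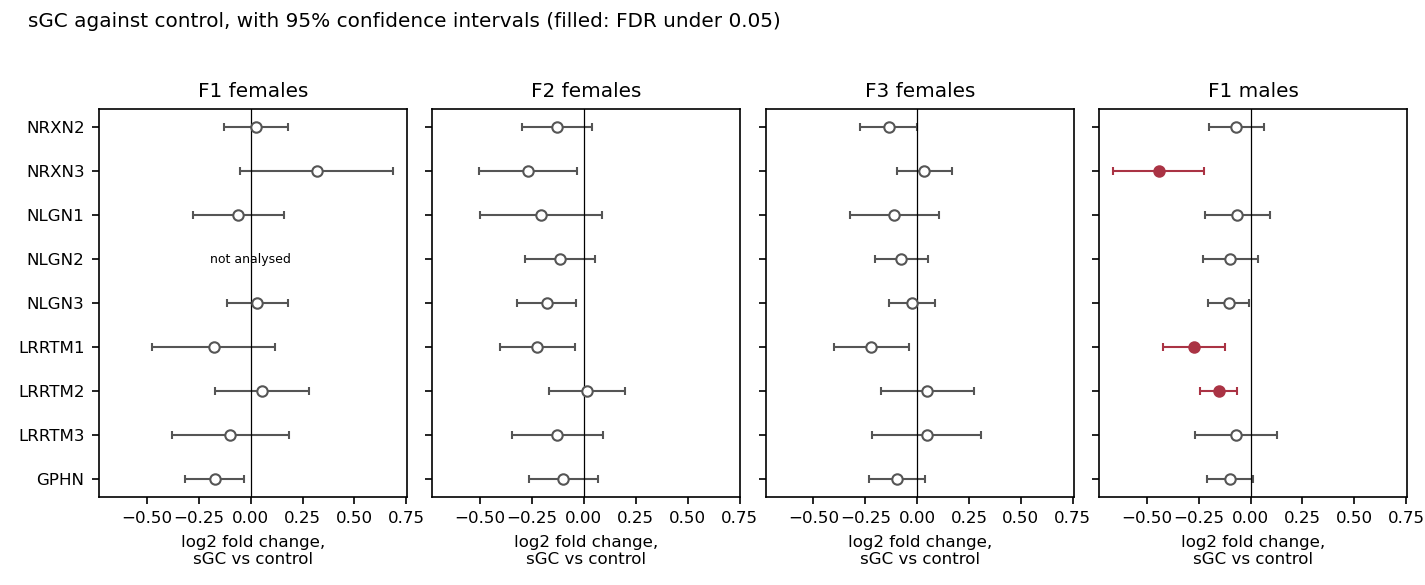
Log2 fold change of sGC against control for each gene in each table, with 95% confidence intervals from the edgeR quasi-likelihood fit. Filled red points mark an FDR under 0.05 and are NRXN3 (-0.44), LRRTM1 (-0.27) and LRRTM2 (-0.15) in F1 males, where all 9 points lie below 0.

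Across the list, 9 of 9 members had negative log2 fold changes in F1 males, 8 of 9 in F2 females, 6 of 9 in F3 females and 4 of 8 in F1 females. Their medians were -0.10, -0.13, -0.08 and -0.02, beside medians over all genes tested of -0.00, 0.01, -0.01 and -0.03. LRRTM1, GPHN and NLGN1 were below 0 in all 4 tables, 3 of the 8 members tested in every table, as were 10.4% of all genes. These are signs without a threshold.

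The mean sGC response over the 4 tables, from a single fit of the 8 groups, was computed after these signs had been seen and is given as a description without a test. The mean log2 fold change was -0.22 (SE 0.05) for LRRTM1, -0.11 (SE 0.03) for GPHN and -0.10 (SE 0.05) for NLGN1. The other 5 members lay closer to 0, with -0.08 for NRXN3, whose tables differed in sign, -0.07 for NRXN2, -0.06 for NLGN3, -0.06 for LRRTM3 and -0.0030 for LRRTM2. NLGN2, which was measured in 3 tables, was not part of this fit.

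The level of some members in control animals differed between tables, which were counted separately, so that table, generation and sex cannot be told apart and no test was made. NLGN2 controls were at 108 ± 11.3 CPM in F1 males (SD, n = 5), 116 ± 6.88 CPM in F2 females (SD, n = 4) and 202 ± 10.6 CPM in F3 females (SD, n = 4). The first 2 ranges overlapped, and the F3 range of 189 to 211 CPM lay above both. GPHN controls rose in the order F2 females (42.4 ± 1.63 CPM), F1 males (44.6 ± 2.78 CPM), F1 females (49.9 ± 2.43 CPM) and F3 females (64.7 ± 4.79 CPM), where again only the F3 range stood clear of its neighbour. NRXN3 controls ran from 42.8 CPM in F3 females through 52.4 CPM in F1 females and 63.4 CPM in F1 males to 70.8 CPM in F2 females, each range overlapping the next. For the other 6 members the highest mean was 1.07 to 1.23 times the lowest and all neighbouring ranges overlapped. Over all genes the median of this ratio was 1.47 and its 90th percentile 2.88.

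Which genes varied most like each member was examined across the 35 animals (27 for NLGN2), using Pearson's r of log2 CPM after the mean of each table had been removed. NRXN2 and NLGN3 were alike (r = 0.807), and NLGN3 was the closest of 10725 genes to NRXN2. NRXN3 varied most like NTN3 (r = 0.892), a netrin, and ADGRL3 (r = 0.871), a latrophilin that is itself a synaptic adhesion receptor. LRRTM1 varied most like DAPK1 (r = 0.907), a calmodulin-dependent kinase, and RCOR2 (r = 0.855). LRRTM2 varied most like SLITRK4 (r = 0.8), another postsynaptic adhesion protein, NLGN1 like PPP1CB (r = 0.799), NLGN2 like CAMSAP1 (r = 0.834), NLGN3 like MAPKBP1 (r = 0.827), LRRTM3 like PPP1R8 (r = 0.727) and GPHN like PDE8B (r = 0.750). Among the 28 pairs of 8 members, 27 correlations were positive with a median r of 0.309, or 0.277 once group means were removed. All points share libraries and cell composition, and treated and control animals were pooled, so these values are descriptions.

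Beyond the members, 100 genes of synaptic adhesion had been listed by role, of which 76 or 77 were tested in each table. In F1 females 24 of 76 were called (31.6%, background 16.5%), 20 of them higher and 4 lower, against 9.21% and 7.33% of all genes, with a median log2 fold change of 0.20 against -0.03 over all genes. In F1 males 14 of 76 were called (18.4%, background 9.22%), 1 higher and 13 lower, against 5.74% and 3.48% of all genes, with a median of -0.10. F3 females had 1 of 77 called, higher, as were 1.07% of all genes, and 27 at an unadjusted p under 0.05, against 17.3% of all genes. The likelihood ratio test called 9 higher and 3 lower there and DESeq2 11 higher and 2 lower, where these tools called 616 and 632 of all 11420 genes. F2 females had 0 of 76 called by the quasi-likelihood test and 22 at an unadjusted p under 0.05, against 16.1% of all genes. DESeq2 and the likelihood ratio test each called 2 higher and 7 lower in F2 females, where they called 473 and 534 of all 11132 genes. The F1 counts moved when single animals were left out, between 7 and 25 higher in F1 females (7 without control 3 and without sGC animal 1) and between 5 and 20 lower in F1 males (5 without control 3 and without sGC animal 4).

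**Figure D4:**
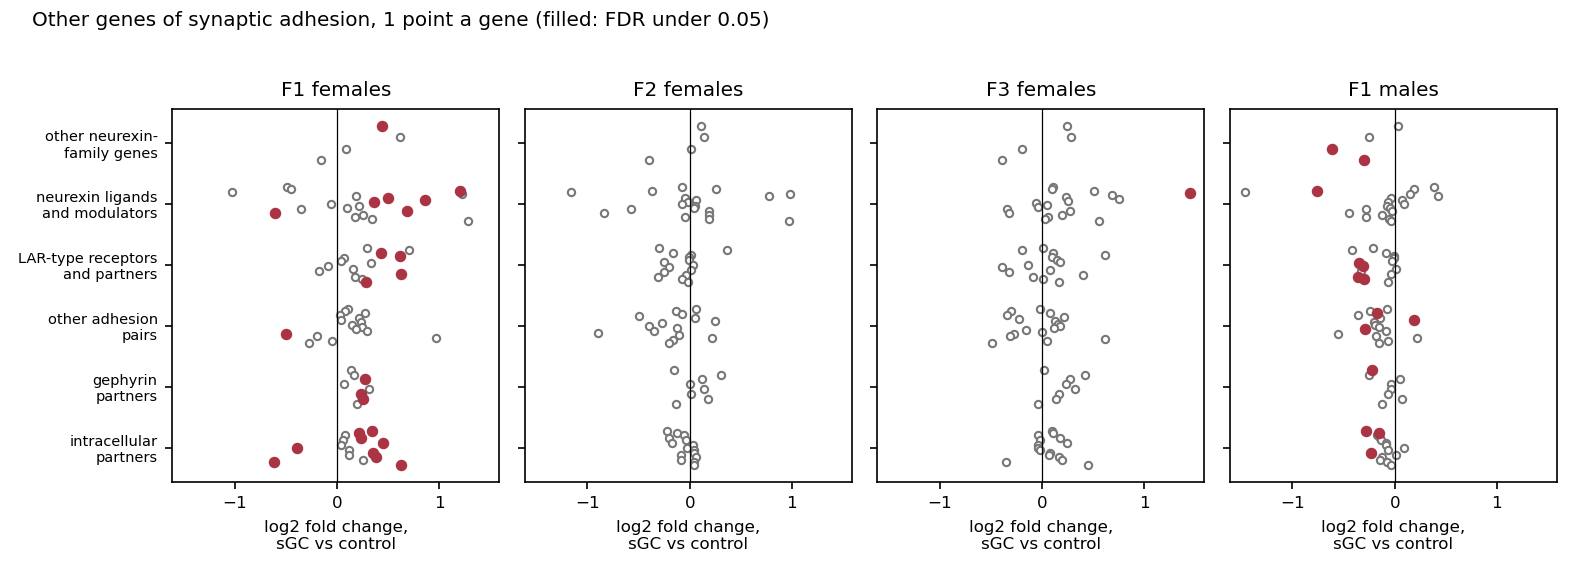
Log2 fold change of sGC against control for each other gene of synaptic adhesion, 1 point a gene, arranged by role in rows and by table in panels. Filled red points mark an FDR under 0.05, 20 to the right and 4 to the left of 0 in F1 females, and 1 to the right and 13 to the left in F1 males.

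Among ligands and modulators of neurexins and their partners, C1QL3, a secreted C1q-like protein that binds neurexin 3 variants and adhesion GPCRs, went opposite ways in the F1 sexes. F1 female controls were at 69.7, 31.3, 37.0 and 49.9 CPM and sGC females at 115, 72.3, 117 and 127 CPM, with no overlap, as for 23.2% of all genes. The log2 fold change was 1.20 (SE 0.26, FDR 0.0194, edgeR quasi-likelihood test). In F1 males it was -0.76 (SE 0.18, FDR 0.0210), with controls from 173 to 281 CPM and 5 of 6 sGC males below them. The male response minus the female response was -1.96 (SE 0.34, FDR 0.000413). Left-out animals changed the calls, which held in 6 of 8 fits in females (lost without control 3 and without sGC animal 1) and in 7 of 11 fits in males (lost without control 3 or 4 or sGC animal 1 or 4). Excitatory cortical sums overlapped in F1 females only through control 1, at 5011 CPM. The other controls were at 2892 to 3150 CPM and sGC females at 4149.5 to 8198 CPM. Their medians were 3065 CPM for all controls and 5178 CPM after sGC, with 0 of 9 genes called. The part of this shift in the C1QL3 values was not tested. Control levels of C1QL3 were lower in F1 females than in F1 males, 47.0 ± 17.0 CPM (SD, n = 4) against 216 ± 48.9 CPM (SD, n = 5). In F2 females C1QL3 was not called, with 137 to 166 CPM in controls and 108 to 132 CPM after sGC. The F2 response minus the F1 female response was -1.57 (SE 0.29, FDR 0.00475, edgeR quasi-likelihood test of the interaction). F3 females had 39.6 to 49.3 CPM in controls and 47.0 to 93.3 CPM after sGC. Sex and table cannot be told apart here either.

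Other partners rose in F1 females, among them CLSTN2, a calsyntenin (log2 fold change 0.86, SE 0.11, FDR 0.00404), and IGSF21, a ligand of neurexin 2 (0.68, SE 0.16, FDR 0.0263). In F3 females CLSTN2 was not called, with 116 to 268 CPM in controls and 266 to 327 CPM after sGC. Its F3 response minus the F1 female response was -0.12 (SE 0.27, FDR 0.867, edgeR quasi-likelihood test of the interaction). The F1 female response of CLSTN2 was called as different from F2 females (FDR 0.0166) and F1 males (FDR 0.00149) by that test. SHANK3, a postsynaptic scaffold (-0.62, SE 0.18, FDR 0.0432), MDGA1, which blocks neuroligins (-0.60, SE 0.13, FDR 0.0182), and NECTIN3, a nectin (-0.50, SE 0.13, FDR 0.0334), were lower in F1 females. In F2 females NECTIN3 ran from 31.3 to 51.7 CPM in controls and 13.6 to 32.7 CPM after sGC. MDGA1 ran there from 17.2 to 30.6 CPM and 7.24 to 20.1 CPM, and neither was called. No interaction of MDGA1 or NECTIN3 between tables was called (FDR 0.417 to 0.920, edgeR quasi-likelihood test of the interaction). Leaving out 1 F1 female kept the F1 female calls on CLSTN2 in 8, MDGA1 in 7, IGSF21 in 4, SHANK3 in 3 and NECTIN3 in 2 of 8 fits. By role, the calls in F1 females came to 9 of 15 intracellular partners (7 higher, 2 lower), 3 of 8 gephyrin partners, 6 of 19 neurexin ligands and modulators, 4 of 14 LAR-type phosphatases and partners, 1 of 4 other members of the neurexin and neuroligin families and 1 of 16 other trans-synaptic pairs, beside 16.5% of all genes. All 8 gephyrin partners had positive values, while 54.5% of all genes were below 0. Among the called intracellular partners, SYT1 is itself in the pan-neuronal list. These rises stood beside the rise in pan-neuronal markers given above, and the lower SHANK3 values beside the lower striatal markers. F1 female controls 1 and 4, with striatal sums of 2710 and 2569 CPM, had SHANK3 at 350 and 223 CPM. Controls 2 and 3, with striatal sums of 594 and 923 CPM, had it at 199 and 217 CPM. The part of these shifts in the F1 female partner values was not tested. The sole partner called in F3 females was CBLN2, a cerebellin that bridges neurexins to delta receptors. Its controls were at 37.8, 15.2, 17.8 and 17.9 CPM and its sGC animals at 53.9, 60.0, 75.1 and 53.3 CPM, and the log2 fold change was 1.44 (SE 0.26, FDR 0.0367, edgeR quasi-likelihood test). It was called in 1 of 8 fits that left out an animal, the one without control 1. In F1 females CBLN2 ran from 27.9 to 95.4 CPM in controls and 67.0 to 182 CPM after sGC. F2 females ran from 36.6 to 80.2 CPM and 45.8 to 180 CPM, and F1 males from 49.0 to 107 CPM and 77.5 to 116 CPM. Each pair of ranges overlapped. The F3 response minus the F1 female response was 0.21 (SE 0.54, FDR 0.884, edgeR quasi-likelihood test of the interaction). In F3 females, pan-neuronal markers were higher as well (5 of 9 called, 5972 to 7807 CPM against 9368 to 10029 CPM), and excitatory cortical sums did not overlap (0 of 8 called, 2664 to 2932 CPM against 3265 to 3565 CPM). The median inhibitory neuron sum was 769 CPM for F3 controls and 564 CPM for F3 sGC females, with 1 of 9 genes called higher. The part of these shifts in the CBLN2 value was not tested.

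In F1 males the called partners other than C1QL3 included CNTNAP5, a contactin-associated protein of the neurexin superfamily (-0.61, SE 0.17, FDR 0.0380), and SLITRK3, a postsynaptic partner of LAR-type phosphatases (-0.36, SE 0.09, FDR 0.0250). Leaving out 1 male kept the calls on CNTNAP5 in 3 and on SLITRK3 in 7 of 11 fits. CADM4, an adhesion protein also made by myelinating glia, was the single partner called higher in males (0.19, SE 0.05, FDR 0.0212). It stood beside the oligodendrocyte markers given above. In F2 females CADM4 was not called, with 544 to 587 CPM in controls and 623 to 678 CPM after sGC. Its ranges overlapped in F1 and F3 females. The male CADM4 response minus the F1 female response was 0.15 (SE 0.09, FDR 0.215, edgeR quasi-likelihood test of the interaction). LRRTM4, the fourth LRRTM, is named here because of its kinship and was chosen after its values were seen. It had log2 fold changes of -0.15, -0.40, -0.39 and -0.30 in F1, F2 and F3 females and F1 males, called in males (FDR 0.0442, edgeR quasi-likelihood test, and in 2 of 11 fits that left out 1 animal) and not in females (FDR 0.560, 0.164 and 0.109). The male call was lost with the replicate block (FDR 0.0796) and in the single fit of all 8 groups (FDR 0.0999), while LRRTM4 was called in F3 females by the likelihood ratio test (FDR 0.0453) and, by the quasi-likelihood test, without control 1 (FDR 0.0343). In F3 females its controls, 13.5 to 18.8 CPM, did not overlap the sGC animals, 11.4 to 13.4 CPM, as for 10.3% of all genes.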

How the data were processed

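The authors extracted RNA from medial prefrontal cortex punches, made TruSeq V2 libraries and sequenced single-end reads. TopHat2 and edgeR are named in the submitters' processing notes; the read counter and genome build are not given in the sources used here, so no coordinates are printed. The authors deposited 4 tables, F1, F2 and F3 females and F1 males, each giving counts of reads by gene symbol without normalization. Their columns of dispersion, fold change, log CPM, likelihood ratio, p-value and FDR stand in the same tables and were not used.

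For this report, edgeR 4.0.16 was run under R 4.3.3 (limma 3.58.1, and DESeq2 1.42.0 as an alternative). The filterByExpr function removed genes of low count (minimum 10, total 15), TMM set the scaling, and groups were compared within each table by the quasi-likelihood test, with Benjamini-Hochberg adjustment over all genes tested (11132 to 11524). Interactions were fitted over 2 tables. The scripts were tested on simulated counts. Alternatives were DESeq2, edgeR's likelihood ratio test, scaling by RLE or by upper quartiles, other filters, a replicate block, a single fit and leaving out each animal. The 9 genes, the partner lists and the marker lists were chosen with earlier results of these data known. Named genes were all 9 members, up to 3 called partners with the largest change in each direction per table, and the 2 genes most alike to each member. No 2 libraries of a group agreed within sampling noise (chi-square per degree of freedom at least 2.84). RefSeq lists all 9 members as protein coding (mCavPor4.1).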

Additional observations from a re-analysis of the deposited data

Results flagged for a closer look

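Of 70 sets of values, each 1 gene in 1 group of animals, 4 had a lowest or highest animal far from the rest by Dixon's criterion, and chance alone gives about 1 in 20. NRXN2 in F1 female sGC animal 4 was lowest at 231 CPM, against 270.4 to 277 CPM in the other 3 animals. NRXN3 in F1 male control 3 was highest at 76.8 CPM, with the next control at 61.6 CPM, and the male NRXN3 call held without that animal. LRRTM3 in F1 female sGC animal 2 was highest at 57.7 CPM, with the next at 40.6 CPM. LRRTM3 in F1 male sGC animal 6 was lowest at 31.8 CPM, with the next at 41.0 CPM.

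The response of NRXN3 to sGC differed between F1 males and F1 females by -0.77 on the log2 scale (SE 0.20, FDR 0.00707, edgeR quasi-likelihood test of the interaction). Its log2 fold change was -0.44 in males, with 6 of 6 sGC males below all controls, and 0.32 in females, with 1 of 4 sGC females above all controls. In males 2.04% of all genes had every sGC animal below all controls. The interaction was called for 31.7% of all genes, and sex and table cannot be told apart.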

How the results depend on the processing

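The number of members called moved with the processing as follows. In F1 females it was 0, and 1 when all 8 groups were fitted together (GPHN) and 0 to 1 when 1 animal was left out (1 without control 1, NRXN3, and 1 without sGC animal 2, LRRTM3). In F1 males it was 3, and 1 in the single fit (NRXN3), 1 when p under 0.001 was also asked for (NRXN3), and 1 to 3 without 1 animal (1 without control 4 or sGC animal 1, 2 or 3). For the interaction of F1 females with F1 males it was 1, and 0 with p under 0.001 and 1 to 2 without 1 animal (2 without female sGC animal 3, adding LRRTM2). For F1 with F2 females it was 0, and 1 by the likelihood ratio test, 1 by DESeq2 and 0 to 1 without 1 animal (1 without F1 control 1), each time NRXN3. The cause was not tested. Over all genes, the single fit called 3327 of 10948 in F1 females, and p under 0.001 left 587 of 11524 in F1 males. For the interaction of F1 females with F1 males, p under 0.001 left 1667 of 11274. Without 1 animal, that contrast had 3007 to 3623 genes called, and F1 with F2 females had 808 to 1906.

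Signs turned only for log2 fold changes near 0. Upper-quartile scaling gave -0.010 for NRXN2 and -0.0059 for NLGN3 in F1 females. Leaving out 1 animal gave ranges across 0 in F1 females for NRXN2 (-0.0018 to 0.084), NLGN1 (-0.12 to 0.0047), NLGN3 (-0.016 to 0.082) and LRRTM2 (-0.057 to 0.12), in F2 females for LRRTM2 (-0.032 to 0.093), in F3 females for NRXN3 (-0.016 to 0.063), LRRTM2 (-0.0058 to 0.13) and LRRTM3 (-0.012 to 0.18), and in F1 males for NRXN2 (-0.10 to 0.0022) and NLGN1 (-0.10 to 0.010).

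No pairing of animals by replicate number was seen, as correlations of same-numbered animals ran from -0.332 to 0.338 and 5 of 17 exceeded 0.1. There were no animals known to be paired for comparison, so these values cannot decide whether the numbers pair animals. With the replicate block the members called were 0, 0 and 0 in F1, F2 and F3 females and 2 in F1 males (LRRTM2 lost, FDR 0.0946, edgeR quasi-likelihood test), and 1, 0, 0 and 0 in the 4 interactions.

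Counts over all genes moved more: in F2 females from 31 to 534 by the likelihood ratio test, 473 by DESeq2, 10 in the single fit and 0 to 487 without 1 animal, in F3 females from 153 to 616, 632, 396 and 20 to 598, in F1 females from 1864 to 1080 with the block, 3327 in the single fit and 613 to 2115 without 1 animal, and in F1 males from 1062 to 587 with p under 0.001 and 667 to 1613 without 1 animal. With 4 animals a group, the 95% intervals of the members in females reached 0.11 to 0.37 to either side of the estimate on the log2 scale.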
